A study of Mus musculus with 8 samples.

Results

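The 8 Trim genes of the chromosome 7 antiviral cluster were followed in mouse spermatogonial stem cell (SSC) cultures: Trim5, Trim6, Trim12a, Trim12c, Trim30a, Trim30d, Trim34a and Trim34b. They were taken by symbol from the 55421 genes of the count table, and all 8 were among the 20588 genes that passed the filter on low counts. The set was chosen by the counts of Trim12a, whose reads were nearly missing from the libraries labelled Spo11KO, and the other 7 are its paralogs at the same locus. The comparison of Stra8KO with Spo11KO is therefore given for these genes as a description, with no test, whereas the response to NRRA within a genotype was tested. The SSC cultures were primary spermatogonia of the C57BL/6XDBA/2 background, an F1 hybrid per the study's methods, established from testes of pups and grown with N2, bFGF and GDNF on irradiated embryonic fibroblasts of outbred mice as feeder cells. All groups shared the background and the feeders. Stra8KO Veh and Stra8KO NRRA were cultures without a working Stra8 gene, and Spo11KO Veh and Spo11KO NRRA were labelled as lacking Spo11. Veh was the vehicle, and NRRA was nutrient restriction combined with retinoic acid for 2 days. The restriction medium was SSC medium diluted in a salt solution (EBSS), so that the growth factors were diluted along with the nutrients in the NRRA groups. Each group had 2 libraries, 8 in all. Wild-type cultures were not analysed here, and the sources used here do not say which parental copies of chromosome 7 a culture carried. Per the study, the replicates of sequencing were biological and independent, without saying for these libraries what was separate (mice, derivations or dishes), and the p-values measure the spread between them only.

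TRIM proteins carry a RING domain that attaches ubiquitin, followed by a B-box and a coiled coil, and many end in a domain that binds a target. TRIM5 of primates recognises the capsid of incoming retroviruses and also feeds innate immune signalling. Rodents carry several relatives of it, the Trim5, Trim12 and Trim30 genes, beside Trim6 and Trim34, and many genes of this kind are switched on by interferon through response elements near their start sites.

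The members lie within 289 kb of chromosome 7 in GRCm38, the assembly also called mm10. Trim6 (ENSMUSG00000072244) spans chr7:104218793-104235152 on the plus strand and is the first of them. Trim34a (ENSMUSG00000056144, chr7:104244457-104262234) and Trim34b (ENSMUSG00000090215, chr7:104329471-104336909) share its strand. Trim5 (ENSMUSG00000060441, chr7:104263386-104288094), Trim12a (ENSMUSG00000066258, chr7:104299894-104315466) and Trim12c (ENSMUSG00000057143, chr7:104338754-104353362) are on the minus strand. Trim30a (ENSMUSG00000030921, chr7:104409025-104465193) and Trim30d (ENSMUSG00000057596, chr7:104470014-104507849) close the cluster, also on the minus strand. All 8 are annotated as protein coding in GENCODE M21, and their counts cover the exons of the whole gene. Neighbours on the chromosome did not share 1 ratio between genotypes, as the map of the cluster shows: Trim12a lies between Trim5, at a log2 ratio of Stra8KO to Spo11KO in Veh of 1.55, and Trim34b and Trim12c, at 0.41 and -0.30.

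**Figure D1:**
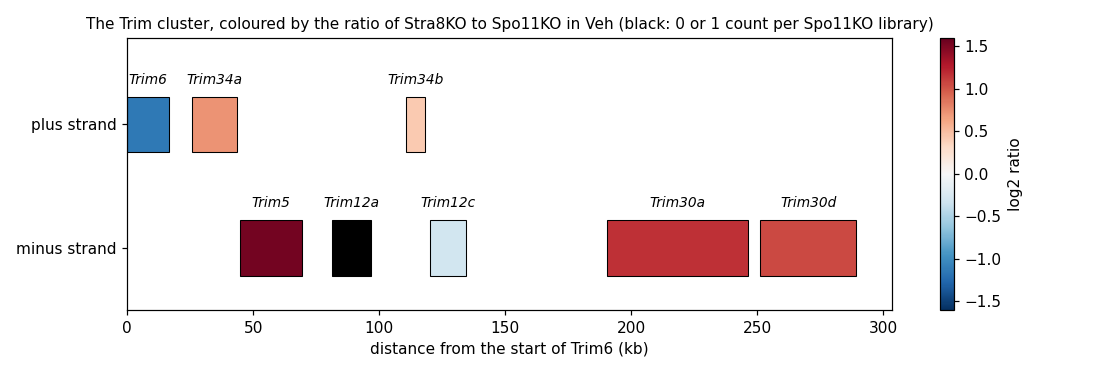
Position of the 8 Trim genes along chromosome 7, in kb from the start of Trim6, with the strand on the vertical axis. Colour gives the log2 ratio of mean CPM in Stra8KO Veh over Spo11KO Veh, from 1.55 for Trim5 to -1.14 for Trim6, and black marks Trim12a, which had 1 count in each Spo11KO Veh library.

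The sequence around the start sites showed which members carry the core of an interferon-stimulated response element. Promoter windows of RefSeq (GRCm38.p6), 250 bases before to 50 bases after each start, were matched by symbol for 8 of 8 members and searched on both strands for GAAANNGAAA, which reads TTTCNNTTTC on the other strand. The core was found in 6 of the 8 members and in 3.99% of the 27025 gene symbols with a window. The 6 are not independent: Trim5 and Trim12a share 1 stretch, with Trim12c nearly the same, and Trim30a and Trim30d share another. No match was found for Trim6 and Trim34b, which says only that these letters are not in that window. The matched stretches follow, in the direction of the gene and with the core in capitals, because they show how alike the Trim5, Trim12a and Trim12c starts are. They lie at chr7:104288136-104288165 (Trim5), chr7:104315466-104315495 (Trim12a), chr7:104353359-104353388 (Trim12c), chr7:104465210-104465239 (Trim30a), chr7:104507871-104507900 (Trim30d) and chr7:104244457-104244486 (Trim34a, plus strand).
Trim5: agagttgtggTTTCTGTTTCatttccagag
Trim12a: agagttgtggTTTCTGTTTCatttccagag
Trim12c: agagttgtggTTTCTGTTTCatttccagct
Trim30a: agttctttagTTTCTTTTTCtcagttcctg
Trim30d: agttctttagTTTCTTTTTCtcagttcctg
Trim34a: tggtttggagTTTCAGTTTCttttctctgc

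Upstream of that element the Trim12a start was also matched in Trim5 and Trim12c. The 180 bases before the RefSeq start of Trim12a (chr7:104315496-104315675, minus strand) are printed because the same 180 bases stand before Trim5 (chr7:104288166-104288345) with 0 differences. Before Trim5 they end 59 bases from its RefSeq start. These are bases of the reference assembly, and the sources used here do not give the sequence of the cultures. The Trim12c counterpart (chr7:104353389-104353569) has 6 different bases and 1 extra base, shown in capitals.
Trim12a: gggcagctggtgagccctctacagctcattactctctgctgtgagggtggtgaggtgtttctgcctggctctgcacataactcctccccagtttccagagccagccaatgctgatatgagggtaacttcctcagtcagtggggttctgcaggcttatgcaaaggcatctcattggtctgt
Trim12c: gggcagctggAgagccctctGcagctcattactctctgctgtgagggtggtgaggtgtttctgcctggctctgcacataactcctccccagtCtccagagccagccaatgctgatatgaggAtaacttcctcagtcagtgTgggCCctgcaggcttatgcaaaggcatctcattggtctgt

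Members this alike can share reads, and how reads that match several places were counted is not given in the sources used here. Between coding sequences of GENCODE M21, identity was 98.2% for Trim34a and Trim34b, 97.0% for Trim5 and Trim12a, 96.6% for Trim5 and Trim12c, 96.3% for Trim12a and Trim12c and 90.2% for Trim30a and Trim30d. The longest annotated coding sequence of Trim12a was 894 bases and those of Trim5 and Trim12c were 1494 bases each, so that identity was taken over the shared 894. Of all stretches of 100 bases in a gene's transcripts, the share also found in another gene was 0% for Trim6, 3.29% for Trim12a, 4.41% for Trim30a, 4.57% for Trim30d, 8.05% for Trim12c and 11.7% for Trim5. It was 30.5% for Trim34b and 39.0% for Trim34a, of which 21 percentage points were shared with Trim34b and 18 with the antisense gene Gm47248. By this share, Trim34a and Trim34b overlap most with other genes, and Trim6 and Trim12a least. The share leaves out how abundant the other gene is. Trim5 had 10 to 39 counts per library, beside 869 to 2147 for Trim12c, with which it shared 258 of its stretches. The part of Trim12c reads in the counts of Trim5 was not tested.

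Library totals ranged from 20960794 to 27038868 counts. The targeted genes lie on other chromosomes. Stra8, on chromosome 6, had 0 to 2 counts with Veh and 169 to 170 with NRRA in Stra8KO, against 12 to 28 with Veh and 12604 to 16191 with NRRA in Spo11KO. Spo11, on chromosome 2, was not lower where it was labelled as lacking, with 72 to 75 counts under Veh and 127 to 148 under NRRA, against 31 to 32 and 66 to 68 in the Stra8KO groups. Its counts therefore do not check that label, and Spo11KO names these libraries by their label only. By staining, the study reports that DMC1 foci were absent from its Spo11-deficient cultures after NRRA. Germ cell markers were present in every library, and so were markers of the feeder cells. The summed level of 16 fibroblast markers was 25780 to 26270 CPM with Veh and 39102 to 39595 with NRRA in Stra8KO, against 13174 to 13337 with Veh and 19816 to 20430 with NRRA in Spo11KO. CPM is the count of a gene per 1000000 counts after scaling by the trimmed mean of M-values (TMM).

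Trim12a, whose encoded protein is a short relative of TRIM5, was read in Stra8KO cultures and next to nothing was counted where the label was Spo11KO. The Stra8KO libraries held 69 and 85 counts with Veh and 133 and 140 with NRRA. The Spo11KO libraries held 1 and 1 with Veh and 1 and 0 with NRRA. No Stra8KO library came near any Spo11KO library. Against a floor of 3 counts per library, above every count seen there, the mean level in Stra8KO was 28.7 times the floor in Veh and 59.1 times in NRRA. These ratios to a chosen floor take no counting error into account and are not confidence limits. Across all 55421 genes, Trim12a was the only gene with at most 3 counts in all 4 libraries of a genotype and at least 20 in each of the other 4. With 10 in place of 20 counts, 1700030C10Rik joined it and 4 genes (Gjb6, Gm10030, Gm50242 and Tmc5) had the reverse pattern, with the floor in Stra8KO.

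Within Stra8KO, Trim12a rose with NRRA. Its level went from 3.09 and 4.28 CPM in Veh to 6.42 and 6.46 CPM in NRRA, and the libraries of the media did not overlap. The log2 fold change was 0.82 ± 0.18 (SE, n = 2 libraries per group, adjusted p = 0.000145 in edgeR's quasi-likelihood test). With the DESeq2 Wald test the log2 fold change was 0.78 with an adjusted p of 0.0566, above the threshold of 0.05, and the adjusted p ran from 0.000125 to 0.0566 over 16 alternatives. In the libraries labelled Spo11KO, counts of 0 and 1 allowed no reading of a response, and the interaction was not read for this gene. The antisense gene Gm15133, which overlaps the start of Trim12a, had 0 and 1 counts with Veh and 1 and 4 with NRRA in Stra8KO. It had 0 in each library labelled Spo11KO, and these counts are too few to read a difference. The strand setting of the counting is not given, so its reads cannot be told apart from those of Trim12a where the genes overlap.

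**Figure D2:**
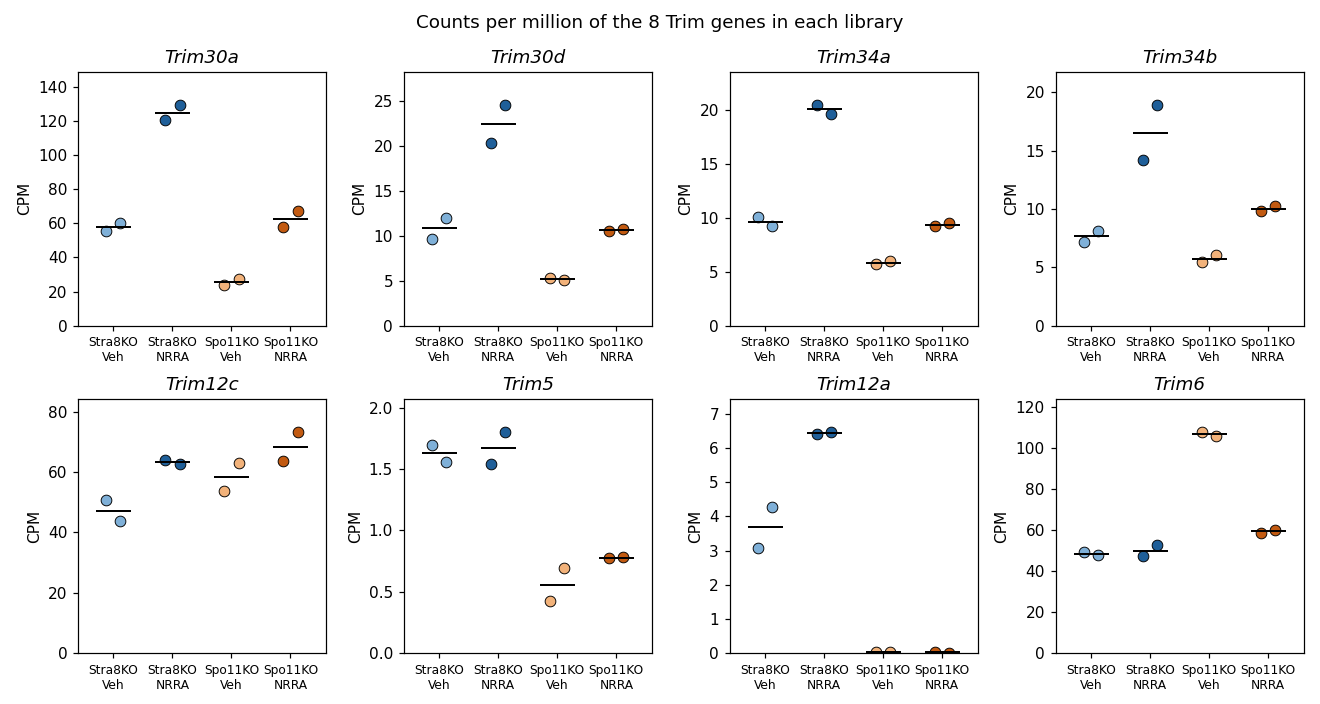
CPM of each Trim gene in the 8 libraries, with 1 point per library and a line at the mean of the 2 libraries of a group, each panel on its own linear axis from 0. Trim12a lies between 3.09 and 6.46 CPM in Stra8KO and below 0.05 CPM in each library labelled Spo11KO, and Trim6 is at 106 and 108 CPM in Spo11KO Veh, above its other 6 libraries.

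Trim5, the gene named after the retroviral restriction factor, was a member with few reads, below Trim12a in each Stra8KO library and above it in each Spo11KO library. It had 38 and 31 counts with Veh and 32 and 39 with NRRA in Stra8KO, against 10 and 16 with Veh and 20 and 23 with NRRA in Spo11KO. How many of these counts came from reads of the far more abundant Trim12c was not tested. All 4 Stra8KO libraries lay above all 4 libraries labelled Spo11KO, as 20.9% of tested genes did. The ratio of mean CPM, Stra8KO over Spo11KO, was 2.92 in Veh, with 2.24 to 4.04 over the 4 pairs of single libraries, and 2.15 in NRRA, with 1.97 to 2.33. Its response to NRRA did not pass the test in Stra8KO (log2 fold change 0.04 ± 0.29, adjusted p = 0.936) or in the libraries labelled Spo11KO (0.48 ± 0.41, adjusted p = 0.348, edgeR's quasi-likelihood test for both). Approximate 95% intervals ran from -0.52 to 0.59 in Stra8KO and from -0.32 to 1.28 in the libraries labelled Spo11KO, so a change within these limits could have been missed.

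Trim12c, a relative of Trim5 with an equally long coding sequence that is known to act with TRAF6 in innate signalling, was far more abundant and did not share the pattern of Trim12a. Its levels were 50.8 and 43.8 CPM with Veh and 64.1 and 62.9 with NRRA in Stra8KO, against 53.7 and 63.0 with Veh and 63.7 and 73.3 with NRRA in Spo11KO. Stra8KO lay below Spo11KO in Veh without overlap, at 0.81 times its mean level, and the genotypes overlapped in NRRA, at 0.93 times. Trim12c rose with NRRA in Stra8KO, by a log2 fold change of 0.42 ± 0.08 (adjusted p = 0.000398, edgeR). The rise in the libraries labelled Spo11KO, 0.23 ± 0.08 (adjusted p = 0.0176, edgeR), was lost without Spo11KO Veh replicate 1 (0.12) or without Spo11KO NRRA replicate 2 (0.11). The 3 near-identical genes summed, Trim5, Trim12a and Trim12c held a mean of 52.6 ± 4.21 CPM (SD, n = 2) in Stra8KO and 59.0 ± 6.75 in Spo11KO under Veh. Under NRRA the sum was 71.6 ± 0.66 in Stra8KO and 69.3 ± 6.70 in Spo11KO. The summed levels of the genotypes overlapped in both media. Trim12a made up 3.68 CPM of the sum in Stra8KO Veh, less than the SD of the sum in Spo11KO Veh, so the absence of its reads was not detectable in the sum.

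Trim30a and Trim30d rose with NRRA in both genotypes. Trim30a, the mouse gene known to dampen Toll-like receptor signalling by removing TAB2 and TAB3, had 55.6 and 60.4 CPM with Veh and 120 and 129 with NRRA in Stra8KO, against 23.9 and 27.5 with Veh and 57.5 and 67.3 with NRRA in Spo11KO. NRRA was above Veh without overlap in each genotype. The log2 fold change was 1.11 ± 0.07 in Stra8KO (adjusted p = 4.23e-14) and 1.28 ± 0.08 in Spo11KO (adjusted p = 2.79e-14, edgeR for both). Trim30d, its neighbour and closest relative, had 9.62 and 11.98 CPM with Veh and 20.3 and 24.5 with NRRA in Stra8KO, against 5.31 and 5.09 with Veh and 10.5 and 10.7 with NRRA in Spo11KO. Its log2 fold changes were 1.06 ± 0.11 (adjusted p = 5.05e-11) and 1.03 ± 0.14 (adjusted p = 2.35e-08, edgeR). For either gene the Spo11KO NRRA libraries overlapped those of Stra8KO Veh, as the plot of CPM by library shows. The ratio of Stra8KO to Spo11KO was 2.26 in Veh (2.02 to 2.53 over the pairs of libraries) and 2.00 in NRRA (1.79 to 2.25) for Trim30a, and 2.08 (1.81 to 2.35) and 2.11 (1.89 to 2.34) for Trim30d.

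Trim34a and Trim34b, interferon-inducible genes that are almost copies of each other, also rose in both genotypes. Trim34a had 10.1 and 9.21 CPM with Veh and 20.5 and 19.7 with NRRA in Stra8KO, against 5.77 and 5.96 with Veh and 9.26 and 9.48 with NRRA in Spo11KO. Its log2 fold change with NRRA was 1.05 ± 0.10 in Stra8KO (adjusted p = 1.84e-11) and 0.68 ± 0.12 in Spo11KO (adjusted p = 1.29e-05, edgeR). The difference between these responses, 0.38 ± 0.16, did not pass the test (adjusted p = 0.0946, edgeR). Trim34b, which had no response element core in its window, had 7.20 and 8.16 CPM with Veh and 14.2 and 18.9 with NRRA in Stra8KO, against 5.43 and 6.09 with Veh and 9.80 and 10.2 with NRRA in Spo11KO. It rose by 1.12 ± 0.13 (adjusted p = 8.93e-10) and 0.80 ± 0.14 (adjusted p = 5.14e-06, edgeR) on the log2 scale. Because reads can pass between the pair, their sum is the firmer value: it rose 2.11-fold with NRRA in Stra8KO and 1.67-fold in Spo11KO, and its ratio of Stra8KO to Spo11KO was 1.49 in Veh and 1.89 in NRRA. Gm47248, the antisense gene that covers the end of Trim34a, had 34 and 26 counts with Veh and 108 and 90 with NRRA in Stra8KO, against 20 and 25 with Veh and 33 and 39 with NRRA in Spo11KO. The labels name more than 1 library kit and the strand setting of the counting is not given, so reads of Trim34a and Gm47248 cannot be told apart.

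Trim6 was the member that went another way. Its protein is known to build free ubiquitin chains that help the kinase IKBKE in the interferon response. Trim6 had 49.3 and 47.8 CPM with Veh and 47.3 and 52.8 with NRRA in Stra8KO, against 108 and 106 with Veh and 58.7 and 60.2 with NRRA in Spo11KO. Only the Spo11KO Veh libraries stood apart, above the other 6. Trim6 fell with NRRA in Spo11KO (log2 fold change -0.85 ± 0.05, adjusted p = 1.9e-17) and its change in Stra8KO did not pass the test (0.04 ± 0.06, adjusted p = 0.614, edgeR). The difference of the responses, Stra8KO minus Spo11KO, was 0.89 ± 0.08 (adjusted p = 7.32e-12, edgeR's quasi-likelihood test of the interaction). Stra8KO over Spo11KO was 0.45 in Veh (0.44 to 0.46) and 0.84 in NRRA (0.79 to 0.90), so the genotypes came closer under NRRA. With no stretch of 100 bases shared with another gene, Trim6 is the member least exposed to reads of its relatives. The summed level of 8 germ cell markers was 801 to 803 CPM in Stra8KO Veh and 937 to 984 in Stra8KO NRRA. It was 1664 to 1713 CPM in Spo11KO Veh and 1646 to 1706 in Spo11KO NRRA. Within that sum, single markers went in both directions with NRRA in Spo11KO, at log2 fold changes of -1.04 to 0.63. The part of germ cell content in the level of Trim6 was not tested.

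Across the cluster, 6 of 8 members were called higher with NRRA in Stra8KO, where 21.4% of all tested genes were called higher, and 0 were called lower, against 20.1% of all tested genes. In the libraries labelled Spo11KO, 7 members could be read, of which 5 were called higher, against 24.7% of all tested genes, and 1 was called lower, against 25.5%. The median log2 fold change of the members was 0.94 in Stra8KO and 0.68 in Spo11KO, and the medians of all tested genes were 0.01 in each. For the interaction, 1 of 7 members was called, Trim6, beside 24.7% of all tested genes. Trim30a (-0.18 ± 0.10), Trim30d (0.03 ± 0.18), Trim34b (0.32 ± 0.19), Trim12c (0.19 ± 0.11) and Trim5 (-0.45 ± 0.50) gave log2 differences between responses that did not pass the test, which does not show that the responses were alike. Under the replicates left out in turn, total counts and the other alternatives, calls changed for Trim12a, Trim12c and Trim30a only.

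**Figure D3:**
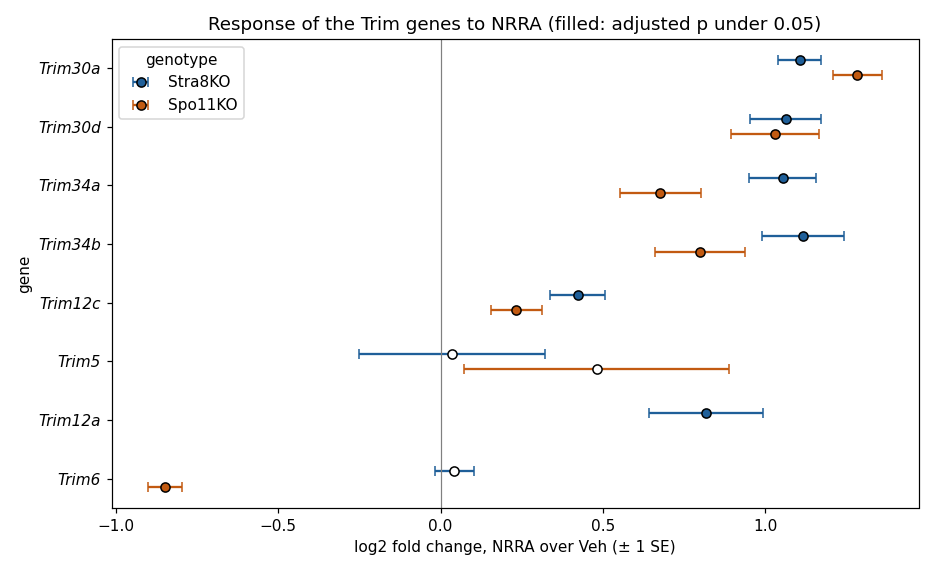
Log2 fold change of each Trim gene from Veh to NRRA, with bars of 1 SE, by genotype label, from edgeR's fit to all 8 libraries. Filled points have an adjusted p under 0.05. Trim6 is the only member left of 0, at -0.85 in Spo11KO, and no Spo11KO point is drawn for Trim12a, which had 0 or 1 count there.

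Between genotypes, 6 of 8 members (Trim5, Trim12a, Trim30a, Trim30d, Trim34a and Trim34b) were higher in Stra8KO without overlap in both media, as 31.2% of all tested genes were, and 1 (Trim6) was lower without overlap in both media, as 28% of all tested genes were. Those counts describe the choice of genes and are not tested. By their medians, markers of feeder cells and of leukocytes differed in the same direction as the members that were higher. The log2 difference between Stra8KO and Spo11KO over the 16 fibroblast markers had a median of 1.03 in Veh (0.45 to 1.55) and 0.97 in NRRA (0.78 to 1.39), with no marker at 0 in any group. Over 8 macrophage or other leukocyte markers it was 1.11 in Veh (-0.05 to 2.06) and 0.91 in NRRA (0.20 to 1.92). Their summed levels were 54.7 to 57.7 CPM with Veh and 65.1 to 65.5 with NRRA in Stra8KO, against 35.9 to 38.7 with Veh and 38.7 to 42.1 with NRRA in Spo11KO. Over the 8 germ cell markers the median log2 difference was -1.02 in Veh (-1.21 to -0.60) and -0.98 in NRRA (-1.17 to 0.42). In bulk libraries, fewer cells of a type and less RNA per cell cannot be told apart, and the part of the feeder share in the levels of Trim30a, Trim30d, Trim5, Trim34a and Trim34b was not tested.

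**Figure D4:**
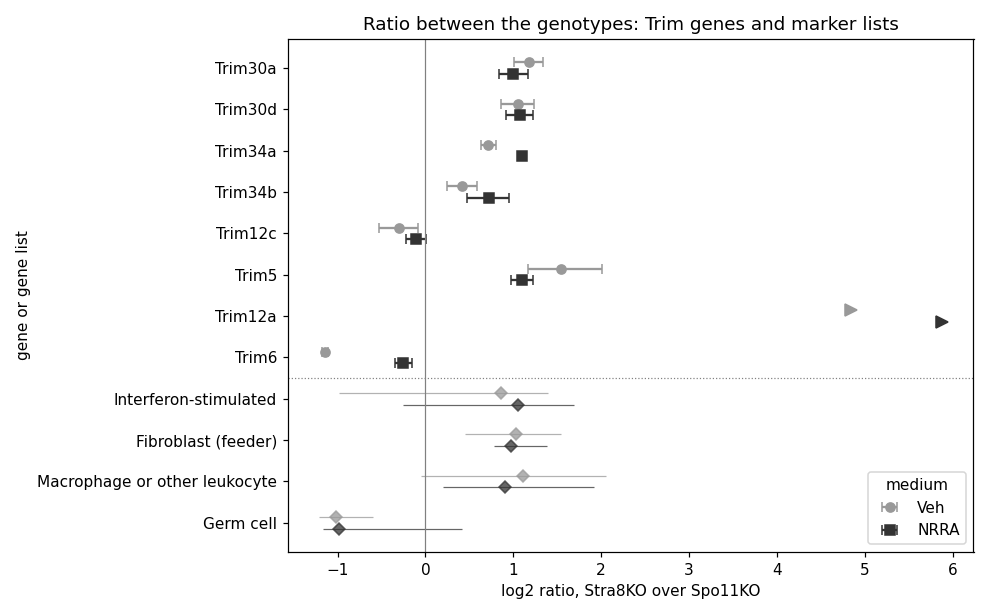
Log2 ratio of Stra8KO over Spo11KO in Veh (grey) and NRRA (black) for the 8 Trim genes, above the dotted line, and for 4 gene lists, below it. For the genes, points are ratios of group means and bars run over the 4 pairs of single libraries. The arrowheads of Trim12a are ratios of the Stra8KO mean to a floor of 3 counts per library. For the lists, diamonds are medians of fitted log2 differences and thin bars run from the lowest to the highest gene.

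The markers of feeder cells went in both directions with NRRA, and their summed level was higher. Of 16 fibroblast markers, 7 were called higher and 7 lower in Stra8KO, with a median log2 fold change of 0.07, and 8 higher and 8 lower in Spo11KO, with a median of -0.01. Beside this and the marker lists below, 21.4% of all tested genes were called higher and 20.1% lower in Stra8KO. In Spo11KO these shares were 24.7% and 25.5%. The summed level of the fibroblast markers, given above, was higher under NRRA without overlap in both genotypes, and its part in the levels of the members was not tested. The fibroblast markers called higher included the collagen genes Col3a1, at 1.78 ± 0.03 in Stra8KO and 1.68 ± 0.03 in Spo11KO, and Col1a1, at 1.46 ± 0.03 in Stra8KO. S100a4, a calcium-binding protein of fibroblasts, fell in both, with log2 fold changes of -2.17 ± 0.20 and -1.66 ± 0.28 (adjusted p = 4.81e-12 and 3.49e-06, edgeR). Among 8 macrophage or other leukocyte markers, 1 was called higher and 1 lower in Stra8KO, and 2 higher and 2 lower in Spo11KO. Lyz2 rose (log2 fold change 0.56 ± 0.08 in Stra8KO and 0.94 ± 0.10 in Spo11KO) and Cd68 fell (-0.54 ± 0.14 and -1.24 ± 0.15). The others called, in Spo11KO only, were Adgre1 (0.95 ± 0.21) and Csf1r (-0.32 ± 0.10). Ptprc, which marks leukocytes, had 6 to 22 counts in every library, where Lyz2 had 210 to 705. The germ cell list had 4 higher and 1 lower in Stra8KO and 4 higher and 3 lower in Spo11KO, with medians of 0.11 and 0.06.

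Levels per length put the members in an order that changed between groups at its top and at its end. In CPM per kb of annotated exon, Stra8KO Veh ran from Trim30a (14.1 ± 0.83, SD, n = 2) and Trim12c (12.6 ± 1.32), whose libraries overlapped, through Trim6 (9.92 ± 0.22), Trim34b (4.15 ± 0.37), Trim34a (3.72 ± 0.23) and Trim30d (2.87 ± 0.45) to Trim12a (0.64 ± 0.15) and Trim5 (0.44 ± 0.03). The libraries of Trim34b and Trim34a stood next to each other without overlap, at 3.89 against 3.88 CPM per kb where they were closest. Under NRRA, Trim30a led in Stra8KO at 30.3 ± 1.55, before Trim12c at 17.0 ± 0.23 and Trim6 at 10.2 ± 0.80. In Spo11KO Veh, Trim6 led at 21.9 ± 0.25, followed by Trim12c at 15.6 ± 1.75 and Trim30a at 6.25 ± 0.63. In Spo11KO NRRA, Trim12c (18.3 ± 1.80) and Trim30a (15.2 ± 1.68) came before Trim6 (12.1 ± 0.21). Below these, the order Trim34b, Trim34a, Trim30d was the same in all 4 groups, although libraries of Trim34b and Trim34a overlapped in Stra8KO NRRA. Trim12a came before Trim5 in both Stra8KO groups and after it in both Spo11KO groups. The make-up of the cluster shifted with it: of the summed CPM of the 8 genes, Trim6 held 49.5% and 53.3% in the Spo11KO Veh libraries and 16.0% and 16.7% in Stra8KO NRRA, whereas Trim30a held 11.8% and 12.8% in the first and 40.8% and 40.9% in the second. The sum itself went from 187 CPM in each Veh library to 295 and 316 under NRRA in Stra8KO, and from 202 and 215 to 210 and 232 in Spo11KO.

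The surroundings of the cluster were mostly silent. With 1000000 bases added on each side of the members, 165 other genes of the table lay in the region, 104 of them olfactory receptor genes by symbol, and 102 of those had at most 3 counts in every library. Of the 165, 10 passed the filter on low counts. The other 2 Trim30 genes inside the cluster, Trim30b (chr7:104355382-104369884) and Trim30c (chr7:104382065-104400837), had 0 to 6 and 0 to 8 counts per library and were not tested. The low counts of Trim30b and Trim30c stand between Trim12c and Trim30a, which had at least 869 and 567 counts in every library. Of the 10 tested neighbours, 5 were called higher with NRRA in Stra8KO and 4 in Spo11KO, beside 21.4% and 24.7% of all tested genes, and 0 were called lower in either, beside 20.1% and 25.5%. The 5 in Stra8KO are not independent: Gm5901 lies within Fam160a2, Gm45667 overlaps Cavin3, and Gm47248 lies within Trim34a. Usp17le and Cckbr, called in Spo11KO, had 1 to 16 counts per library. Gm47248, inside the cluster, rose by 1.71 in Stra8KO (adjusted p = 6.43e-08, edgeR) and gave 0.43 in Spo11KO (adjusted p = 0.27), with an interaction of 1.28 ± 0.41 (adjusted p = 0.0191, edgeR).

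Other genes of the antiviral pathway were listed by symbol. Among interferon-stimulated genes, 39 of 40 were tested. With NRRA, 39 were called higher in Stra8KO, against 21.4% of all tested genes, with a median log2 fold change of 1.00. In Spo11KO 38 were called higher, against 24.7% of all tested genes, with a median of 0.78. The exception was Samhd1, which cuts deoxynucleotides and restricts retroviruses and which fell in Spo11KO (log2 fold change -1.12). Oas3, a sensor of double-stranded RNA, rose by 1.91 ± 0.11 in Stra8KO and 1.52 ± 0.15 in Spo11KO (adjusted p = 4.44e-18 and 4.3e-11, edgeR). Trim30a, Trim30d, Trim34a and Trim34b, at 0.68 to 1.28, were within the range of that list in each genotype (0.25 to 2.97 in Stra8KO and -1.12 to 1.596 in Spo11KO). For the interaction, 13 of the 39 were called higher, against 14.6% of all tested genes, and 1 lower, against 10.1%. The largest at an average log2 CPM of at least 1 were Samhd1 (1.53 ± 0.07) and the guanylate-binding GTPases Gbp2 (1.304 ± 0.12), Gbp3 (0.90 ± 0.09) and Gbp7 (0.68 ± 0.11). Between genotypes the list had a median log2 difference of 0.86 in Veh and 1.06 in NRRA, higher in Stra8KO, beside 0.00 and 0.07 over all tested genes.

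The genes that induce and carry the interferon signal were called in both directions. Of 21 listed, 19 were tested, with 7 called higher and 6 lower in Stra8KO and 8 and 8 in Spo11KO. Of all tested genes, 21.4% were called higher and 20.1% lower in Stra8KO, and 24.7% and 25.5% in Spo11KO. Ifngr1, a chain of the interferon gamma receptor, rose by 1.58 ± 0.06 in Stra8KO and 0.77 ± 0.07 in Spo11KO (adjusted p = 1.8e-23 and 2.31e-12, edgeR). Ifnar2, a chain of the type I interferon receptor, rose by 1.18 ± 0.06 in Stra8KO (adjusted p = 1.98e-21, edgeR), and Dhx58, which modulates the sensing of viral RNA, rose by 0.91 ± 0.07 and 0.78 ± 0.08 (adjusted p = 6e-15 and 4.07e-11, edgeR). Socs3, a feedback inhibitor of cytokine signalling, fell by 1.77 ± 0.05 in Spo11KO (adjusted p = 3.94e-30, edgeR).

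Partners through which TRIM5 proteins are known to signal were called in both directions, at shares near those of all tested genes. Of 10 tested, 1 was called higher and 2 lower in Stra8KO, and 3 higher and 3 lower in Spo11KO, with medians of 0.00 and 0.02, where 21.4% and 20.1% of all tested genes were called higher and lower in Stra8KO and 24.7% and 25.5% in Spo11KO. Ppia, the cyclophilin that binds retroviral capsids, fell in both genotypes, with log2 fold changes of -0.34 ± 0.04 and -0.45 ± 0.04 (adjusted p = 3.99e-10 and 1.89e-13, edgeR). Ube2n, the enzyme that passes ubiquitin on to such ligases, fell likewise, at -0.24 ± 0.05 and -0.29 ± 0.05 (adjusted p = 0.000313 and 5.44e-06, edgeR).

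Trim genes elsewhere in the genome were called in both directions. Of 61 listed, 48 were tested, with 14 called higher and 9 lower in Stra8KO (median 0.09) and 18 higher and 13 lower in Spo11KO (median 0.10), beside 21.4% higher and 20.1% lower of all tested genes in Stra8KO and 24.7% and 25.5% in Spo11KO. Trim21, a receptor for antibody inside the cell, rose by 0.80 ± 0.07 in Stra8KO (adjusted p = 2e-13, edgeR), and Trim14, an adaptor of innate signalling, rose by 0.82 ± 0.18 (adjusted p = 0.000336, edgeR). Trim47 fell, at -1.28 ± 0.12 in Stra8KO and -0.98 ± 0.15 in Spo11KO (adjusted p = 4.8e-12 and 6.29e-07, edgeR). Trim16 also fell in Stra8KO, at -0.82 ± 0.10. In Spo11KO, Trim17 (1.14 ± 0.22), Trim36 (1.03 ± 0.12) and Trim62 (0.92 ± 0.11) rose.

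The members fell into sets by how their levels ran over the 8 libraries, which share 4 groups, so that the correlations are given as descriptions. Pearson's r of log2 CPM was 0.93 to 0.99 among Trim30a, Trim30d, Trim34a and Trim34b, and 0.92 between Trim5 and Trim12a. Trim6 ran against those 6, at -0.86 to -0.66. Trim12c was apart from all others, at -0.42 to 0.42. Because Trim12a had 0 or 1 count in each library labelled Spo11KO, its r values, here and below, largely repeat the split by which the set was chosen. Over all tested genes, the genes most like Trim30a were Ctsc (r = 0.998) and H2-Q1 (0.997), and those most like Trim30d were the peptide transporter gene Tap1 (0.995) and Ifit1 (0.994). Trim34a ran closest with Ifnar2 (0.998) and Adamts9 (0.997), and Trim34b with Slc17a9 (0.995) and BC023105 (0.994). Trim12a ran closest with Nfkbiz (0.998) and Pofut2 (0.997), Trim5 with Arl10 (0.995) and Lrrn4cl (0.994), Trim12c with Bcap29 (0.982) and Epm2a (0.978), and Trim6 with Heatr1 (0.992) and Hoxb8 (0.991).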

How the data were processed

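Expression was measured by RNA-seq of poly(A) RNA in 8 libraries of SSC cultures. The authors deposited raw read counts per gene, not normalized. The submitters' processing notes name bcl2fastq, STAR 2.6.1c, featureCounts 1.6.4 and the build mm10; their options, the annotation release and the treatment of reads with several matches are not given in the sources used here. Groups followed the labels, and library totals are given with the results. Of the gene identifiers, 99.5% were in GENCODE M21 (GRCm38), the source of coordinates, exon lengths and transcripts; promoters came from RefSeq (GRCm38.p6).

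The tests were run in edgeR 4.0.16 (R 4.3.3): filterByExpr (20588 genes, 99.9% of counts), TMM, 1 group-means model on all 8 libraries and robust quasi-likelihood F tests, two-sided, with Benjamini-Hochberg adjustment over all tested genes and calls at an adjusted p under 0.05. Each SE is the size of the log2 fold change over the root of F. Tests were NRRA against Veh in each genotype and their interaction, the response in Stra8KO minus that in Spo11KO. The scripts were tested on simulated data. CPM and CPM per kb were computed from the deposited counts with the TMM-scaled totals. At most 3 counts was the floor. Ratios to it take no counting error into account, and no molecular identifiers were used. The libraries of a group differed by more than sampling noise (mean chi-square per gene 1.86 to 4.12) and were counted separately.

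The members, lists and tests were chosen with earlier results of these data known. Named were the 8 members, the Trim genes between them, up to 4 called genes per list and contrast with the largest change at an average log2 CPM of at least 1, genes at the floor in 1 genotype with at least 20 counts in each library of the other, and the 2 genes most correlated with each member; Gm47248, Gm15133 and Ptprc were added after their values were seen. DESeq2 1.42.0, the tool named in the study's methods, was run as an alternative, beside other scalings, filters, designs and single libraries left out.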

Additional observations from a re-analysis of the deposited data

Results flagged for a closer look

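The response of Trim6 to NRRA differed between the genotypes by the interaction test: the log2 difference, Stra8KO minus Spo11KO, was 0.89, with 47.3 to 52.8 CPM in all 4 Stra8KO libraries and a fall from 106 and 108 to 58.7 and 60.2 CPM in the libraries labelled Spo11KO. The same test set apart the responses of the interferon-stimulated genes Samhd1 (1.53), Gbp2 (1.304), Gbp3 (0.90) and Gbp7 (0.68), all higher in Stra8KO. It also set apart Gm47248, antisense to the end of Trim34a, at 1.28, and the difference for Trim34a itself, 0.38, did not pass the test. Reads of Gm47248 and Trim34a cannot be told apart, so these values are not a contrast of separate genes.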

How the results depend on the processing

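With 2 libraries per group and low counts for Trim5 and Trim12a, small responses could not be read. Of 451 recomputed single-gene values, 426 kept their direction and their side of the threshold or moved by less than the spread between libraries. With total counts, 8 log2 ratios of Stra8KO to Spo11KO moved further than that, all towards lower values: under NRRA to 0.90 for Trim5, -0.46 for Trim6, -0.32 for Trim12c, 0.79 for Trim30a, 0.87 for Trim30d and 0.89 for Trim34a, and under Veh to -1.25 for Trim6 and 0.60 for Trim34a. The count of members called with NRRA was 6 in Stra8KO, and 6 of 7 in Spo11KO, and each stayed within 1.5 times that under every alternative run. The count of members called for the interaction went from 1 to 2 with total counts, where Trim30a joined Trim6 at -0.27, and ran from 1 to 2 as single libraries were left out: Trim12c joined without Spo11KO Veh replicate 1 (0.30) or Spo11KO NRRA replicate 2 (0.30), and Trim30a without Spo11KO NRRA replicate 1 (-0.29); the cause was not tested. The rise of Trim12c in Spo11KO was no longer called without a filter beyond 1 count (0.28). Genes at the floor in 1 genotype numbered 6 in place of 1 at 10 counts in the other, a looser limit. Log2 values that were never called changed sign: Trim5 in Stra8KO without Stra8KO Veh replicate 2 (-0.021) or Stra8KO NRRA replicate 2 (-0.082), in a range of -0.082 to 0.14 over the libraries left out, Trim6 in Stra8KO without Stra8KO NRRA replicate 2 (range -0.040 to 0.12), and the interaction of Trim30d with total counts (-0.061), without a filter (-0.030), with the DESeq2 Wald test (-0.0066), without Stra8KO Veh replicate 1 (-0.13) and without Stra8KO NRRA replicate 2 (-0.11; range -0.13 to 0.19). The legacy quasi-likelihood method, chosen after seeing the data, changed no call of a member.

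Replicate numbers did not pair the libraries: deviations from the group means of same-numbered libraries of Veh and NRRA correlated at 0.03 in Stra8KO and 0.23 in Spo11KO. With the replicate number as a block, 6 members were called with NRRA in Stra8KO, 6 in Spo11KO and 1 for the interaction.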
